A study of Mus musculus with 17 samples.

Results

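The genes described here are those whose expression was highest on day 2 after muscle injury in sorted muscle macrophages. They were chosen from the expression values themselves. A gene's score was the lower of its values in Ly6C high and Ly6C low macrophages on day 2, minus the highest of its values in Ly6C high macrophages on day 1 and in both subsets on day 4. Genes were eligible if any of the 5 macrophage columns gave them 6 or more on the log2 scale, and with a symbol that did not mark a pseudogene or a numbered predicted gene. Of 38087 genes in the table, 10111 were eligible, and the 100 with the highest scores were taken. All 5 macrophage columns entered the score, so the values in them are given as a description and no test was made on them. The neutrophil column did not enter it.

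RNA was sequenced from cells sorted out of the tibialis anterior, which lies along the shin, in 3-month-old male mice of the strain DBA/2J. The muscle had been injured with cardiotoxin, a venom component that destroys fibres and lets them regenerate. The 17 samples form 6 groups. Neutrophils of day 1 have 2 samples, and the 5 macrophage groups have 3 each: Ly6C high at 1, 2 and 4 days after injury, and Ly6C low at 2 and 4 days. All groups were of the same strain, sex and age and came from injured muscle, and the table held no uninjured muscle and no other strain. The deposited table gives 1 log2 value of normalised reads per gene and group and none per sample. Differences therefore have no replicate check, and whether any of them exceeds the spread between animals is not known.

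After an injury, monocytes with high surface Ly6C enter muscle from the blood, become macrophages, and lose Ly6C as they turn from inflammation and clearance of debris to support of repair. Cells that grow need more ribosomes and more mitochondrial proteins. Mitochondria carry their own ribosomes, RNA polymerase and tRNA synthetases, whose proteins are encoded in the nucleus. Cytosolic ribosomes are assembled in the nucleolus by a separate set of processing factors and RNA nucleases, and cells sense amino acids at the lysosome before they commit to growth.

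The gap between the lower day 2 value and the highest other value, which is the score, was small for each of the genes. Differences between single columns were larger for some of them, such as Spp1. Scores ran from 0.45 on the log2 scale for Prokr1, a 1.36-fold difference, to 0.21 for Sdhc, a 1.16-fold difference, with a median of 0.26. No eligible gene reached a score of 0.5. Both day 2 columns were above the other 3 columns in 882 of the 10111 eligible genes, or 8.72%; all 100 described here are among them because the score chose them. The opposite shape, with both day 2 columns below the other 3, was found in 872 genes, and there 50 genes differed by at least 0.5 and 9 by at least 1, up to 1.45. The last 5 genes taken were Polrmt, 2810428I15Rik (Rex1bd), Pepd, Wdr36 and Sdhc, with scores that round to 0.21. The first 5 not taken were Nfu1, Rnh1, Zc3h12d, Trmt2a and Vrk1, with scores from 0.2084 for Nfu1 to 0.2057 for Vrk1, so the limit falls in a continuous series of values.

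**Figure D1:**
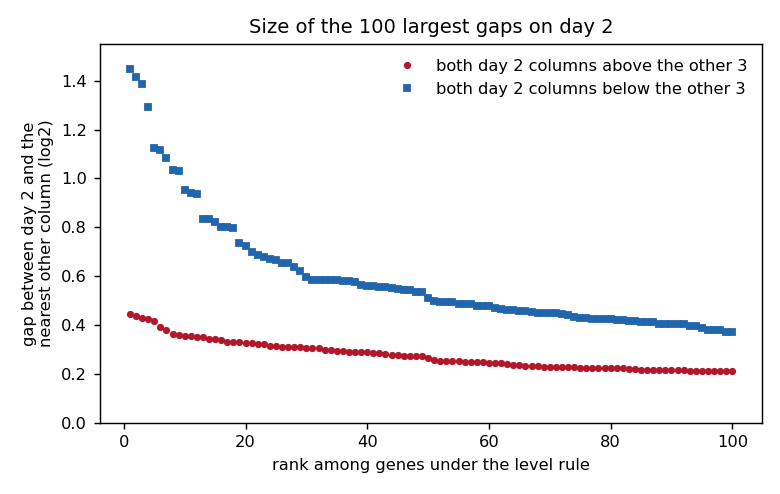
Scores on the log2 scale (vertical axis) against rank (horizontal axis) for the day 2 peak and for its mirror image, the day 2 low. The peak starts at 0.45 and reaches 0.21 at rank 100, while the day 2 low starts at 1.45 and is at 0.37 at rank 100.

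The reads behind these values bound their counting error. Part of the lowest values of each macrophage column falls on ladders of whole reads, from which 1 read was worth 0.412 to 0.670 normalised units, so that 6 on the log2 scale came to between 95.5 and 155 reads per library. The counting standard error of a score was then 0.0029 to 0.12 on the log2 scale, with a median of 0.056. All 100 scores were more than 2 times their counting error and 86 were more than 3 times it, the lowest ratio being 2.30 for Znhit6. The genes were picked by this same score, so these counts are no test of them. The share of all eligible genes above these ratios is not given. Counting error leaves out differences between animals and sorts, and a gene taken because its score is high will on average have a score that errs upward. The mean day 2 value of the 100 ran from 6.03 to 17.13 with a median of 8.25, against 8.33 for all eligible genes.

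The labels were checked against cell markers. Ly6g, which defines neutrophils, had 3.48 in their column, and all 5 macrophage columns list it at 0. Csf1r, the receptor for the main macrophage growth factor, was between 13.31 and 14.71 in the macrophage columns, but was also at 13.27 in the neutrophil column. For Ly6c2, the Ly6C high groups had 9.65, 9.87 and 10.56 in order of day, and the Ly6C low groups 6.16 (day 2) and 4.64 (day 4). No marker of any of the 12 cell types listed for this check is among the 100, and no eligible marker had a score above 0. Many markers were not eligible. The eosinophil and erythroid lists had no eligible gene, and the B cell list had 2. The T and NK list and the myogenic list had 4 each, the mast cell list 5 and the neutrophil list 9. The summed level of the fibroblast markers was 12.18 on day 1, 12.74 and 12.42 on day 2, and 16.39 and 14.55 on day 4 (Ly6C high first), so day 4 carried more of them than day 2. Gsn, at 12.77 in neutrophils, was most of the day 1 and day 2 sums (11.82, 12.13 and 12.29). The median marker differed on day 2 from day 1 by 0.99 in Ly6C high and -1.21 in Ly6C low cells. From day 4 of the same subset it differed by -4.79 and -5.30. The summed endothelial markers were at 10.64 on day 1, 10.64 and 10.12 on day 2, and 12.99 and 10.73 on day 4. The myogenic sum was 5.19, then 4.64 and 4.42, then 7.88 and 8.85. It covers only the 4 eligible of 20 myogenic markers (Des, Ttn, Cdh15 and Acta1). Each of these reached 6 on day 4 alone, so the level rule favours the day 4 excess of that sum. What RNA of other cells adds to the lower day 4 values of the 100 genes was not tested. In bulk RNA of a sorted population, fewer cells that express a gene and less of its RNA per cell cannot be told apart.

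Prokr1, which encodes a receptor for the peptide prokineticin, had the highest score in the values as deposited. Its log2 values were 6.20 on day 1, 6.64 in Ly6C high and 6.93 in Ly6C low macrophages on day 2, and 5.34 and 5.64 in those subsets on day 4, with neutrophils at 6.21. The gene lies on chromosome 6, 87578591 to 87590743 (GRCm38). Day 4 was thus well below day 1 for Prokr1, and the size of its score was set by day 1. Ncdn, which encodes the neuronal protein neurochondrin, was at 7.79 on day 1, 8.23 in both subsets on day 2, and 7.72 and 7.71 on day 4. Calml4, which encodes a calmodulin-like protein, was at 5.98 on day 1, 6.71 and 6.79 on day 2, and 6.29 and 5.63 on day 4. In Calml4 the 2 subsets were close on day 2 and apart by 0.66 on day 4, Ly6C high being the higher.

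Psat1 encodes the aminotransferase of serine synthesis. It was at 8.72 on day 1, 9.14 and 9.17 on day 2, and 8.45 in each subset on day 4. Eif2b4 encodes a subunit of the exchange factor that recharges the initiation factor eIF2. It was at 7.06 on day 1, 7.58 and 7.55 on day 2, and 7.06 and 7.13 on day 4, so its values before and after the peak were nearly equal. Spr encodes sepiapterin reductase, the last enzyme of tetrahydrobiopterin synthesis, and was at 7.83 on day 1, 8.21 and 8.51 on day 2, and 7.80 and 7.85 on day 4. Spr and Eif2b4 both had day 4 values within 0.1 of day 1.

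**Figure D2:**
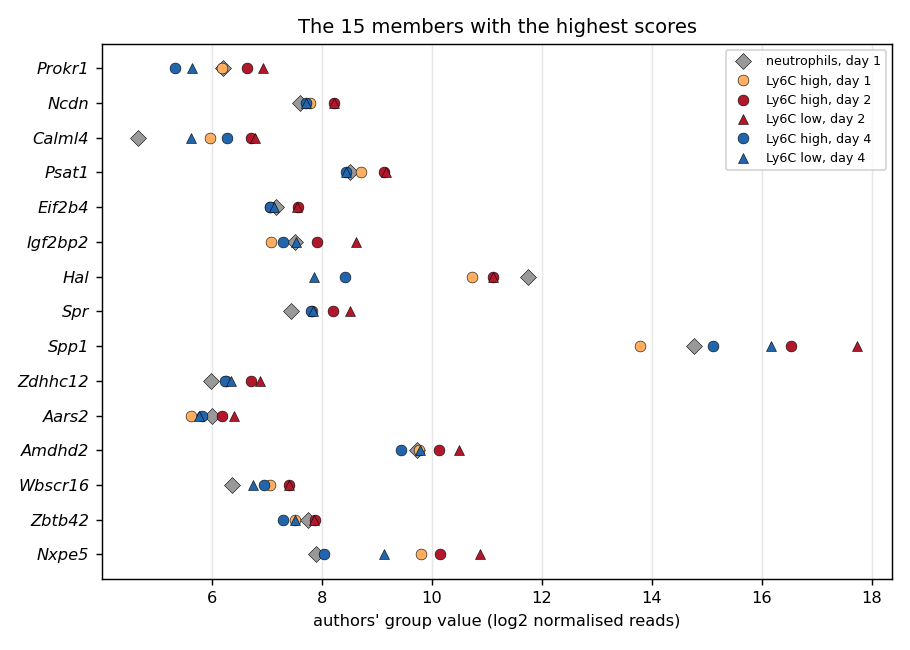
Log2 normalised reads (horizontal axis) of the 15 genes with the highest scores, 1 line per gene; each symbol is the authors' single value for a group (colour gives the day, circles Ly6C high, triangles Ly6C low, diamonds neutrophils), so there are no error bars. In Prokr1 the day 2 values of 6.64 and 6.93 stand above 6.20 on day 1 and above 5.34 and 5.64 on day 4.

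Most of the genes differed little between days. From day 1 to day 2 in Ly6C high cells the difference was 0.21 to 2.74 with a median of 0.32, and 1 of the 100, Spp1, differed by at least 2-fold, against 2.94% of eligible genes. Ly6C low cells on day 2 were above day 1 by a median of 0.43, with 5 genes at least 2-fold higher (8.06% of eligible genes). Ly6C high cells were higher on day 2 than on day 4 by a median of 0.49, with 6 genes at least 2-fold apart (2.22%), and Ly6C low cells by a median of 0.57, with 9 such genes (2.25%). The score fixes the sign of these 4 differences, so nothing is read from their direction. In all, 87 of the 100 stayed under 2-fold in each of the 4, and 13 reached it in at least 1: Spp1, Hal, Nxpe5, Igf2bp2, Prokr1, Mrps18b, Calml4, Snx24, Fpgs, Mboat1, Fam136a, Olfm1 and F7. The share of all eligible genes that reached it in at least 1 was not counted, so nothing is read from the number 13.

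**Figure D3:**
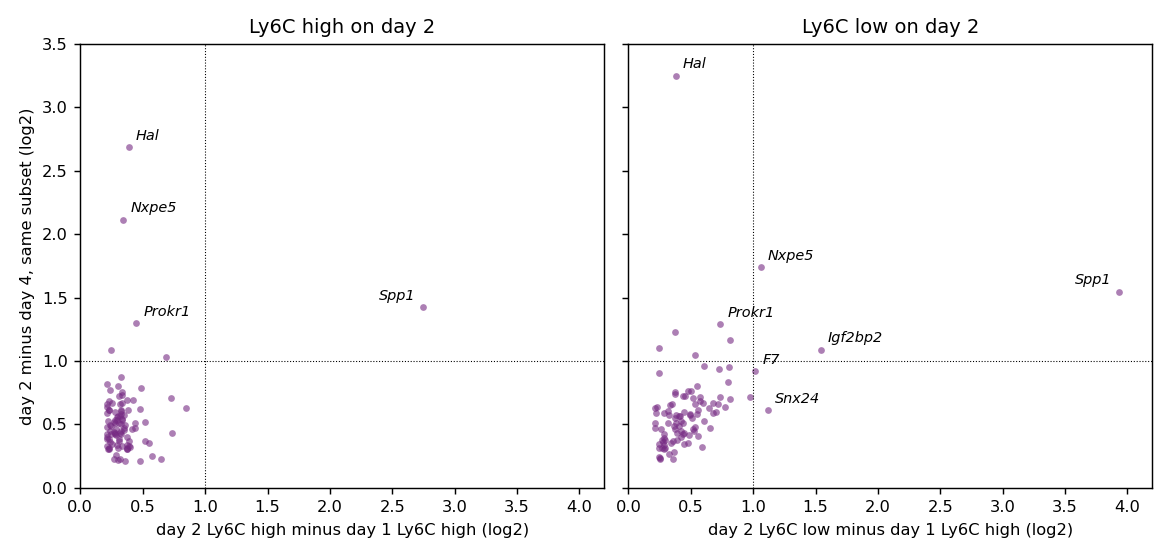
Difference of day 2 from day 1 Ly6C high cells (horizontal axis) and from day 4 cells of the same subset (vertical axis), on the log2 scale, for the 100 genes in Ly6C high (left) and Ly6C low cells (right); dotted lines mark 2-fold. Most points lie inside both lines, Spp1 lies far to the right (2.74 and 3.93) and Hal far up (2.69 and 3.25).

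Spp1 encodes osteopontin, a secreted phosphoprotein that binds integrins and is made by macrophages in injured tissue. It was at 13.79 on day 1, at 16.54 in Ly6C high and 17.72 in Ly6C low cells on day 2, and at 15.11 and 16.18 on day 4. Neutrophils had 14.78. Between Ly6C low cells on day 2 and Ly6C high cells on day 1 the difference was 3.93, the largest of any of the 100. The score of Spp1 was 0.36, the distance between Ly6C high cells on day 2 (16.54) and Ly6C low cells on day 4 (16.18). It depends on the processing: after quantile normalization the score of Spp1 was 0.77, the highest of the 100, against 0.33 for Prokr1, and with means in place of the minimum and maximum it was 1.48. Within each subset Spp1 was lower on day 4 than on day 2, and within each day it was higher in Ly6C low cells.

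Hal, which encodes histidine ammonia-lyase, the first enzyme of histidine breakdown, had a different shape. It was at 10.73 on day 1, 11.12 and 11.11 on day 2, and 8.43 and 7.86 on day 4, while neutrophils had 11.74. Its excess over day 1 was small, and it was lower on day 4 than on day 2 by 2.69 in Ly6C high and 3.25 in Ly6C low cells. Nxpe5 was at 9.81 on day 1, 10.16 and 10.88 on day 2, and 8.04 and 9.13 on day 4, with 7.89 in neutrophils. Igf2bp2, which encodes an RNA-binding protein of growing and embryonic cells, was at 7.08 on day 1, 7.92 and 8.62 on day 2, and 7.29 and 7.53 on day 4, with 7.52 in neutrophils. For Igf2bp2, unlike Hal, both day 4 values were above day 1.

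The stretches upstream of 4 of these genes show how unlike their promoters are in CpG content. RefSeq (GRCm38.p6) gives the 250 bases before the transcription start of Spp1 at chr5:104434861-104435110 on the plus strand, of Hal at chr10:93488518-93488767 on the plus strand, of Igf2bp2 at chr16:22163300-22163549 on the minus strand and of Pgam1, a glycolytic enzyme described further on, at chr19:41911621-41911870 on the plus strand. They are shown 5′ to 3′ on the strand of the gene, with each CG dinucleotide in capitals. Spp1 and Hal stand for the members with the largest differences between days, Igf2bp2 for a large difference with a CpG-rich start, and Pgam1 for the small differences of most members.
Spp1: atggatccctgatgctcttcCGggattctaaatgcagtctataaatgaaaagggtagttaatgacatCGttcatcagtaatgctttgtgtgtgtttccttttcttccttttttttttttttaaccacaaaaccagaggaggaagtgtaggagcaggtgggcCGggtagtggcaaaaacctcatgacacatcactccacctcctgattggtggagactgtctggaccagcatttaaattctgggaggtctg
Hal: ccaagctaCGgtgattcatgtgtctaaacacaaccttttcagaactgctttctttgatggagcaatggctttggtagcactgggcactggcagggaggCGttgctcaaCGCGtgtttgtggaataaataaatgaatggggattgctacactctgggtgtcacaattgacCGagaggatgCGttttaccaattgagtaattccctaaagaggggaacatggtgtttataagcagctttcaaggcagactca
Igf2bp2: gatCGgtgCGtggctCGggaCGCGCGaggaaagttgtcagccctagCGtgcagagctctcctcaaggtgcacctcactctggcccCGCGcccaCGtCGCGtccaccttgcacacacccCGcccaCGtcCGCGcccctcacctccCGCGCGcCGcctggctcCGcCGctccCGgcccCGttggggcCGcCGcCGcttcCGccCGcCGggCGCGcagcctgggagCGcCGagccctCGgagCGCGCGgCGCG
Pgam1: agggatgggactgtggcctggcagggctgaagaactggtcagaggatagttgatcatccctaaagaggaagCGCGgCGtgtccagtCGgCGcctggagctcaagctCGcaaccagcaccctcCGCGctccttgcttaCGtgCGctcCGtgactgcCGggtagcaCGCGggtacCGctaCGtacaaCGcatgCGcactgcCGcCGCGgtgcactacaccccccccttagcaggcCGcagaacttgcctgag

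Those 250 bases hold 3 CG dinucleotides in Spp1, 6 in Hal, 40 in Igf2bp2 and 22 in Pgam1. A promoter window, 300 bases long with 50 of them after the start, was found for 79 of the 100 genes and for 8001 eligible genes. The 79 had a median of 21 CG dinucleotides in it, against 22 for all, and a median GC content of 60.7% against 61.3%. Of the 13 genes with a difference of at least 2-fold, 11 had a window, with a median of 13 CG dinucleotides. Spp1 had 3, Nxpe5 1, F7 5, Hal 7, Calml4 8, Prokr1 13, Fpgs 19, Mrps18b 25, Mboat1 29, Olfm1 32 and Igf2bp2 47, so both kinds of promoter occur among them. The other 68 genes had a median of 21.

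Short motifs were counted on both strands of the same windows, without regard to overlaps between motifs. The shares of the 79 genes and of all 8001 were 12.7% and 15.9% for GGAAGTG (the ETS core), 15.2% and 7.06% for GCATGCG (the core of the NRF1 motif), and 12.7% and 10.6% for CACGTG (the E-box). TGATGNAA, the amino acid response element, was in 3.8% and 2.15%, CCAAT in 43% and 38%, and GGGCGG, the GC box, in 60.8% and 66.6%. TATAAA was in 7.59% and 6.84%, and AAGATGG, the core of the YY1 motif, in 15.2% and 7.9%. The shares of the 79 rest on few genes, 12 each for GCATGCG and AAGATGG and 3 for TGATGNAA. A match is a string of letters and not a bound site.

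By what their proteins are known to do, 18 of the 100 genes act in mitochondria or on the mRNAs of mitochondrial proteins. This sorting was done after the genes were known and for the 100 alone, so the size of a group is a description. The median score of the 18 was 0.26, their median difference from day 1 was 0.31 in Ly6C high and 0.41 in Ly6C low cells, and that from day 4 was 0.43 and 0.56. In 12 of the 18 the highest value outside day 2 was that of day 1, as in 58 of all 100 and in 43.7% of eligible genes. On day 2 Ly6C low cells had the higher value in 16 of the 18, as in 80 of all 100 and in 46.8% of eligible genes. Nothing particular to mitochondrial genes is read from these counts.

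Several of the mitochondrial genes serve the making of proteins there. Aars2, the mitochondrial alanyl-tRNA synthetase, was at 5.63 on day 1, 6.19 and 6.41 on day 2, and 5.83 and 5.77 on day 4. Mrps18b, a protein of the mitochondrial ribosome, was at 6.97, then 7.31 and 7.35, then 6.58 and 6.12, and of the 18 it had the largest difference between days 2 and 4 in Ly6C low cells, 1.23. Mrpl2 was at 7.59, then 7.96 and 8.13, then 7.62 and 7.65, and Mrps11 at 6.64, then 6.94 and 7.16, then 6.60 and 6.69. On day 4 Aars2, Mrpl2 and Mrps11 were at most 0.2 from their day 1 values, whereas Mrps18b was below its own in both subsets. Wbscr16 (Rcc1l), which takes part in mitochondrial ribosome assembly, was at 7.06, then 7.41 and 7.42, then 6.96 and 6.76. Polrmt, the mitochondrial RNA polymerase, was at 6.72, then 7.08 and 7.28, then 6.87 and 6.87, and 1300001I01Rik (Cluh), which binds mRNAs of mitochondrial proteins, was at 9.61, then 9.93 and 9.98, then 9.43 and 9.49.

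Others supply the respiratory chain and its iron-sulphur clusters. Sdhc, a membrane subunit of succinate dehydrogenase, was at 9.62 on day 1, 9.84 and 10.04 on day 2, and 9.45 and 9.60 on day 4. The complex I assembly factors Ndufaf3 (6.61, then 6.91 and 6.88, then 6.34 and 6.50) and Ecsit (6.39, then 6.71 and 6.80, then 6.05 and 6.24) had the same order of days. So had Glrx5, a glutaredoxin of iron-sulphur cluster assembly, at 8.34, then 8.59 and 8.72, then 8.10 and 8.17. Shmt2, which moves a carbon unit from serine into the folate cycle in mitochondria, was at 8.38 and 8.55 on day 2 and between 7.97 and 8.07 in the other 3 columns. Timm8a1, a chaperone of the intermembrane space, was at 6.72, then 6.95 in each subset, then 6.33 and 6.31. Also among the 18 are Bola1, Dnajc15, Fam136a and Tmem14c, with scores of 0.31 for Bola1, 0.23 for Dnajc15, 0.22 for Fam136a and 0.21 for Tmem14c.

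In RNA processing and ribosome assembly there were 13 genes, with a median score of 0.25. Tbl3, part of the complex that processes the small ribosomal subunit RNA, was at 8.27 on day 1, 8.60 and 8.77 on day 2, and 7.93 in Ly6C high cells on day 4. Wdr36, of the same complex, was at 8.46, then 8.67 and 8.78, then 8.01 and 8.21, and Nol6 at 8.26, then 8.55 and 8.63, then 8.08 and 8.17. All of these were lower on day 4 than on day 1. Exosc4 and Exosc9, subunits of the RNA exosome that trims and degrades RNA, differed in how far the subsets parted. Exosc4 was at 6.58 in Ly6C high and 6.67 in Ly6C low cells on day 2, against 6.25 on day 1 and 6.13 and 6.27 on day 4. Exosc9 was at 6.95 and 7.40 on day 2, against 6.59 on day 1 and 6.45 and 6.71 on day 4. Thoc3, Znhit6, Rbmx, D1Bwg0212e (Cnot11), Wdr18, Ccdc86, Lsm4 and Ints7 are the others, with scores from 0.22 to 0.29.

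Translation and tRNA function held 5 genes, with a median score of 0.32. Besides Eif2b4 and Igf2bp2 these were Sepsecs, the last enzyme in the making of selenocysteine tRNA, Vars, the cytosolic valyl-tRNA synthetase, and Adat3, a subunit of a tRNA deaminase. Sepsecs was at 7.08 on day 1, 7.41 and 7.53 on day 2, and 6.98 and 7.09 on day 4. Vars was at 9.04, then 9.32 and 9.36, then 9.06 and 9.09, within 0.1 of day 1 on day 4 in both subsets. Adat3 was at 8.31, then 8.60 and 8.75, then 8.05 and 8.03. The identifier under which Adat3 stands belongs in GENCODE M21 to a read-through gene whose exons overlap those of Scamp4, another of the 100, so the reads of these genes may be shared.

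Among metabolic enzymes were 13 genes, with a median score of 0.27. Amdhd2, which removes the acetyl group from N-acetylglucosamine phosphate, was at 9.77 on day 1, 10.14 and 10.50 on day 2, and 9.44 and 9.78 on day 4. Pgam1, the phosphoglycerate mutase of glycolysis, was at 10.88, then 11.11 and 11.40, then 10.42 and 10.69, and neutrophils had 8.76. Pgp, which clears phosphoglycolate and other toxic by-products of glycolysis, was at 6.89, then 7.24 and 7.17, then 6.77 and 6.80. In Pgam1 the day 2 values were only 0.23 and 0.52 above day 1. Nsdhl, an enzyme of cholesterol synthesis, was at 7.31 and 7.30 on day 2 and between 6.99 and 7.01 in the other 3 columns. Fpgs, which adds glutamate to folates and so keeps them in the cell, was at 6.98, then 7.31 and 7.23, then 6.77 and 6.13. Pepd, which splits dipeptides that end in proline, was at 10.44, then 10.67 and 10.69, then 10.18 and 10.46. 0610007P14Rik (Erg28), Mri1, Mboat1 and Aldh3b1, besides Psat1, Hal and Spr, make up the group, with scores of 0.27, 0.25, 0.24 and 0.22 for those 4.

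Nutrient sensing held 5 genes. Rraga, a GTPase that brings the kinase mTORC1 to the lysosome when amino acids are at hand, was at 9.16 on day 1, 9.55 and 9.47 on day 2, and 9.18 and 8.87 on day 4. 0910001L09Rik (Lamtor4), a subunit of the lysosomal anchor of that GTPase, was at 9.04, then 9.26 and 9.42, then 8.83 and 8.91. Nprl2, a subunit of the complex that switches the same GTPase off, was at 6.21, then 6.61 and 6.57, then 6.29 and 6.34. Activating and inhibiting parts of the same pathway were thus both among the genes. Telo2, a chaperone adaptor for mTOR and related kinases, had a score of 0.27, and Prkag1, a subunit of the energy sensor AMPK, one of 0.31.

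DNA replication and repair held 3 genes, with scores of 0.22 to 0.25. Fen1, the flap nuclease of lagging-strand synthesis, was at 6.85 on day 1, 7.16 and 7.53 on day 2, and 6.78 and 6.94 on day 4. Pold2, a subunit of DNA polymerase delta, was at 6.42, then 6.72 and 7.21, then 6.50 and 6.38. Gtf2h4, a subunit of the repair and transcription factor TFIIH, was at 6.84, then 7.09 and 7.21, then 6.43 and 6.46. All 3 were higher in Ly6C low than in Ly6C high cells on day 2, with a median difference of 0.37. Of the exon bases of Fen1, 78.8% are shared with Gm10143 on the opposite strand, and the kit is not stated to mark strand, so their reads cannot be told apart.

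Receptors, secreted proteins and immune signalling made up 9 genes, with a median score of 0.30. Lat2, an adaptor below immune receptors, was at 11.25 on day 1, 11.55 and 11.70 on day 2, and 11.02 and 11.10 on day 4. F7, which encodes coagulation factor VII, was at 9.11, then 9.44 and 10.13, then 8.57 and 9.21. F7 thus had Ly6C low above Ly6C high on both days, as had Spp1, Lat2 and Enpp1 among others. Bcl2, the inhibitor of apoptosis, was at 6.82, then 7.46 and 7.62, then 7.24 and 6.67. Its score of 0.22 was set by Ly6C high cells on day 4, and in Ly6C low cells on day 4 it was below the day 1 value. Enpp1, which makes pyrophosphate from extracellular nucleotides, was at 9.25, then 9.56 and 9.81, then 8.84 and 9.20. Olfm1, a secreted glycoprotein, was at 9.29, then 9.98 and 9.50, then 8.94 and 8.87. Tradd, an adaptor of the tumour necrosis factor receptor, had a score of 0.28.

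Membrane traffic held 6 genes. Stx4a, a SNARE protein of the plasma membrane, was at 10.34 on day 1, 10.71 and 10.82 on day 2, and 10.41 and 10.46 on day 4. Nsf, the ATPase that takes SNARE complexes apart after fusion, was at 10.03, then 10.33 and 10.29, then 9.53 and 9.83. Snx24 was at 8.08, then 8.81 and 9.20, then 8.10 and 8.59, and Snx17, Trappc2l and Scamp4 had scores of 0.23, 0.23 and 0.31. On day 4 Stx4a was near its day 1 value, and Nsf was below its own.

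The remaining 28 genes were put in no group, and their scores ran from 0.21 to 0.44 with a median of 0.28. They include Zdhhc12, a palmitoyltransferase, at 6.27 on day 1, 6.71 and 6.88 on day 2, and 6.24 and 6.35 on day 4. Ntmt1, which methylates protein N-termini, was at 6.71, then 7.05 and 7.10, then 6.72 and 6.67. Dbi, which binds acyl-CoA, was at 9.74, then 10.07 and 10.17, then 9.53 and 9.75. These 3 had day 4 values within 0.21 of day 1. The zinc finger gene Zbtb42 was at 7.52, then 7.87 in each subset, then 7.30 and 7.51. The deubiquitinase gene Otub1 was at 9.12, then 9.34 and 9.37, then 9.03 and 9.03. Myo7a, an unconventional myosin, was at 8.48, then 8.70 and 9.06, then 7.87 and 8.37. In Zbtb42 and Otub1 the subsets were level on day 2, and in Myo7a the Ly6C low value was the higher. Ckap4, a membrane protein of the endoplasmic reticulum, was at 10.05, then 10.53 and 10.55, then 10.32 and 9.96. The others, besides Ncdn, Calml4, Nxpe5, Arhgap24, Aig1 and 2810428I15Rik, are Sergef, Irf2bpl, Nubp1, Naa20, Comtd1, Rabl3, Sgsm3, Shkbp1, Alg3, Brms1, Gps1, 2310057M21Rik, 2810004N23Rik, 9430038I01Rik and AC158155.1, with scores of 0.21 to 0.30.

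**Figure D4:**
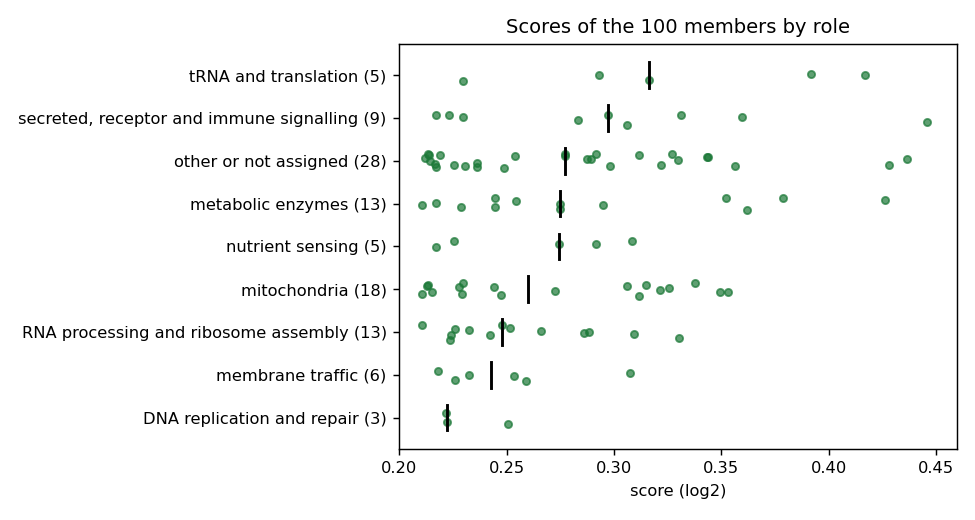
Scores on the log2 scale of the 100 genes by what their proteins are known to do; each point is a gene, the vertical tick is the median of its group, and the small vertical scatter has no meaning. The medians lie between 0.22 for DNA replication and repair and 0.32 for tRNA and translation.

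Gene lists and families that hold some of the 100, and others that hold none, were described by the same score. Each is given by the share of its eligible genes with a score above 0, to be read against 8.72% of all eligible genes. The families were picked by symbol after the 100 were known. Of 9 exosome subunits, 8 had a score above 0, with a median score of 0.10. Of 73 mitochondrial ribosome proteins 33 (45.2%) had one, with a median score of -0.01, and of 36 complex I subunits 20 (55.6%), although no complex I subunit was among the 100 and their median score was 0.01. Of 13 mitochondrial tRNA synthetases 3 (23.1%) had one, with a median score of -0.19, and of 44 Wdr proteins 9 (20.5%), with a median of -0.28. Of 78 cytosolic ribosome proteins 0 did, and their median was -0.41. With the columns rescaled by median ratios these counts were 8 exosome subunits, 28 mitochondrial ribosome proteins, 17 complex I subunits and 1 cytosolic ribosome protein, and after quantile normalization 7, 38, 20 and 1. Over all eligible genes, 905 and 1152 then had a score above 0, in place of 882. Without day 1 in the score, 52 mitochondrial and 3 cytosolic ribosome proteins had one, while the count over all genes was 2840. Of these families, 2 exosome subunits and 3 mitochondrial ribosome proteins are among the 100.

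Among the pathway lists, mitochondrial import, respiration and translation had 19 of 36 genes above 0 (52.8%), with a median score of 0.02, and translation factors and tRNA synthetases 11 of 29 (37.9%), with a median of -0.08. Serine, proline and amino acid synthesis had 4 of 14 (28.6%), cholesterol synthesis 6 of 24 (25%), fatty acid synthesis 4 of 16 (25%), and pentose phosphate and nucleotide synthesis 7 of 34 (20.6%). Ribosome biogenesis had 9 of 49 (18.4%), the lysosome 8 of 47 (17%), DNA replication 5 of 43 (11.6%), the proteasome 4 of 37 (10.8%), and glycolysis 2 of 24 (8.33%). These shares come from the score that chose the genes and include the chosen genes, so they describe the lists and support nothing about them. Inflammatory cytokines and chemokines had 1 of 35 (2.86%). There were 0 among 58 genes of mitosis, 30 interferon-stimulated genes, 25 of the unfolded protein response, 29 of heat shock, 14 of MHC class II and 21 of alternative activation. The same was true of 16 genes of complement, 20 of hypoxia, 26 of the NRF2 response, 28 of apoptotic cell uptake and 33 of pattern receptors.

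The mitosis list shows why a gene group can be high on day 2 and still have no score above 0. Its median difference from day 1 was 1.12 in Ly6C high and 3.14 in Ly6C low cells on day 2. Against day 4, however, its median was -1.38 in Ly6C high and -0.65 in Ly6C low cells, so within each subset these genes were by the median higher still on day 4. The score also compares across subsets, and its median for the list was -2.45. The summed level on day 2 was 12.46 in Ly6C high and 13.43 in Ly6C low cells, against 13.25 and 14.05 on day 4. The low value of Ly6C high cells on day 2 thus also lowers the score. Pparg, the nuclear receptor gene named in the series title, was at 6.29 on day 1, 7.93 and 8.14 on day 2, and 8.81 and 8.45 on day 4, and so is not among the 100.

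**Figure D5:**
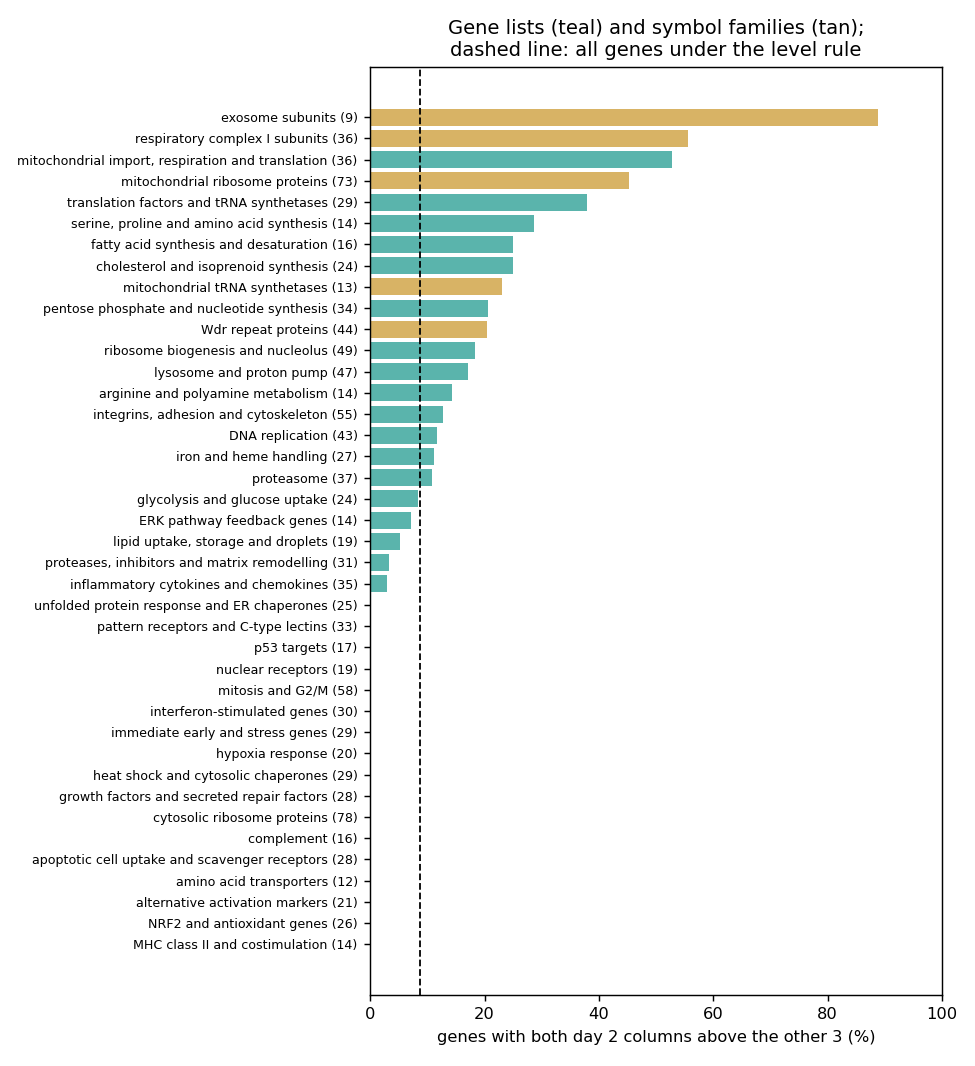
Bars give the share of the eligible genes of each list (teal) or symbol family (tan) with a score above 0, in percent, with the number of eligible genes in parentheses and the share of all eligible genes (8.72%) as a dashed line. Mitochondrial and translation lists lie above the line, at 52.8% and 37.9%, and mitosis, interferon and heat shock lists are at 0.

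The limits of the score came unequally from the groups. The lower of the day 2 values was that of Ly6C high cells in 80 of the 100 genes and that of Ly6C low cells in 20. The highest of the other values was that of day 1 in 58, of Ly6C low cells on day 4 in 30, and of Ly6C high cells on day 4 in 12, against 43.7%, 36.7% and 19.6% of all eligible genes. In the same 58 genes both day 4 values were below day 1, and in 14 both were above it, against 42.3% of eligible genes; the score bears on both counts. For these 58, the day 2 excess is by definition smaller over day 1 than over day 4. The choice of genes leans on the day 1 column in particular: with day 1 left out of the score, 4 of the 100 would be taken again, and with Ly6C low cells of day 4 left out, 44.

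On day 2 the value was higher in Ly6C low than in Ly6C high cells in 80 of the 100 genes, against 46.8% of eligible genes. The median difference was 0.11 on the log2 scale, against -0.03 for all. Because the score used both columns, nothing is read from this share. The subsets were within 0.2 of each other in 69 of the genes, against 38.6% of all, which the score favours. At least 2-fold higher in Ly6C low cells was 1 gene, Spp1 (3.57% of eligible genes), by 1.19, followed by Nxpe5 (0.72), Igf2bp2 (0.70), F7 (0.69) and Pold2 (0.49). Olfm1 was the one gene clearly higher in Ly6C high cells, by 0.47, with Fpgs next at 0.09. On day 4 Ly6C low cells were the higher in 68 of the 100 (49.8% of eligible genes), with a median difference of 0.07. After median-ratio rescaling the counts for days 2 and 4 were 82 and 62, against 47.4% and 46.8% of eligible genes, and after quantile normalization they were 74 and 83, against 50.2% and 56%, so the background of day 4 moved with the members.

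Neutrophils, whose values the score did not use, were more often low than high for these genes. The 13 macrophage markers, however, summed to 17.54 in the neutrophil column, against 17.86 to 18.36 in the macrophage columns. How much RNA of macrophages that column holds was not tested. The neutrophil value was below all 5 macrophage columns in 46 of the 100, against 31.4% of all eligible genes, and above both day 2 columns in 8, against 35.3%. It was above the day 1 macrophage value in 35 genes, against 46.8%, and the median difference between them was -0.21, against -0.06. Because a high score requires a day 1 value below day 2, the comparison with day 2 is not free of the score. After median-ratio rescaling these 3 counts were 41, 11 and 44, against 26%, 41.3% and 54.3% of eligible genes, and after quantile normalization 31, 13 and 42, against 25%, 40.1% and 52.2%. The members' share stayed on the same side of the background in each. Each group has a single value and neutrophils had 2 samples, so no test could be made.

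The 8 genes above both day 2 columns in neutrophils were Aig1, Arhgap24, Rbmx, D1Bwg0212e, Hal, Prkag1, Nsf and Rabl3. Aig1, which encodes a hydrolase of fatty acid esters of hydroxy fatty acids, was at 11.62 in neutrophils, against 9.23 on day 1 and 9.65 and 9.68 on day 2. Arhgap24, a GTPase-activating protein for Rac, was at 10.10, against 8.16 on day 1 and 8.49 and 8.74 on day 2. At least 2-fold above the day 1 macrophage value were 5 genes (13.5% of eligible genes), and at least 2-fold below it were 8 (12.5%). Pgam1 was the lowest, with 8.76 in neutrophils against 10.88 in day 1 macrophages, a difference of -2.11. Nxpe5 (7.89 against 9.81) and Timm8a1 (4.96 against 6.72) followed. The 9 eligible of 21 neutrophil markers summed to 16.66 in neutrophils, 12.46 in day 1 macrophages, 11.70 and 11.89 on day 2, and 11.34 and 11.46 on day 4. Csf3r was most of the day 4 sums, at 10.72 and 10.93, and was not lower there than on day 2 (10.29 and 10.34). The median difference of the 9 between day 2 and day 4 was larger, 0.97 in Ly6C high and 2.35 in Ly6C low cells. Day 2 macrophages were therefore lower in these markers than day 1 macrophages, and by the medians day 4 was lower than day 2. What these differences add to genes such as Hal and Aig1 was not tested.

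In the genome the 100 genes were mostly far apart. Identifiers of 98 were found in GENCODE M21, and all 98 are protein coding, against 97.4% of eligible genes. Their median exonic length was 3394.5 bases, against 4632. Eif2b4 and Snx17 lie head to head on chromosome 5, Eif2b4 on the minus strand from 31187558 to 31193430 and Snx17 on the plus strand from 31193227 to 31199143, and overlap by 204 bases. Nxpe5 and 0910001L09Rik lie 2118 bases apart on the same chromosome. Exons of 31 of the 98 overlap those of another gene, against 38.0% of eligible genes. More than 50% of the exon bases are shared in 2, Fen1 and Brms1, the latter with 79.0% shared with AC124502.3 on the same strand, so the values of these are uncertain.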

How the data were processed

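Per the labels' protocols, poly-A RNA of sorted cells was made into TruSeq libraries and read on a HiSeq. TopHat2 2.0.7, Cufflinks 2.0.2 and the build mm10 are listed in the submitters' processing notes, without saying what each did. How the values were normalised, and on which annotation, is not given in the sources used here. As values, the authors deposited log2 normalised reads with 1 value per gene and group, used as given with no pseudocount. No single-sample values were used, so no test on samples could be run, and no p-value or standard deviation is given.

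The 100 genes and the gene lists were chosen with earlier results of these data known. Roles were assigned from gene symbols after the genes were known. Genes were named by rule: the 15 highest scores, the last 5 taken and first 5 not taken, up to 4 of each list, the 10 highest on day 2, the 5 largest subset differences each way, the 5 highest in neutrophils, Pparg and Ly6c2. Other genes were named after their values were seen. Some genes that were taken are not reported here. Reads per library were estimated from ladders of low values, on which 25.6 to 36.3% of low values fell within a relative tolerance of 1e-05; the procedure was tested on simulated data. Coordinates come from GENCODE M21 and promoters from RefSeq. Python 3.11.15, pandas 2.3.3, numpy 2.4.6 and matplotlib 3.10.9 were used. Alternatives were other level minimums, a pseudocount of 5, median-ratio and quantile scaling, means in the score, protein-coding genes alone, and leaving out a column.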

Additional observations from a re-analysis of the deposited data

How the results depend on the processing

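Of the 100, 92 were taken again with a level minimum of 5, 85 with one of 7, 99 with 5 added on the linear scale, 98 among protein-coding genes, 76 after median-ratio rescaling and 82 without the Ly6C high column of day 4. Fewer were taken after quantile normalization (63), with means in place of the minimum and maximum (39), without the Ly6C low column of day 4 (44) and without the day 1 column (4). Nxpe5 alone was taken under all 10 settings. All 100 scores stayed above 0 after median-ratio rescaling (0.15 to 0.47) and after quantile normalization (0.05 to 0.77).

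Genes with a score of at least 0.5, of which there were 0, numbered 1 with a minimum of 5, 2 after quantile normalization, 35 with means, 331 without day 1, 5 without Ly6C high day 4 and 12 without Ly6C low day 4. Those of at least 1, again 0 at first, numbered 3 with means, 36 without day 1 and 2 without Ly6C low day 4. Those above 0 numbered 882, against 2063 with means, 2840 without day 1 and 1440 without Ly6C low day 4. Among the named genes no score reversed its sign. Leaving out a column or using means can only raise a score or leave it as it was. The counts under those settings therefore could not fall. The level minimums, the pseudocount and the protein-coding filter cannot change the sign of a score. For scores above 0, only median-ratio and quantile scaling could have reversed it. No paired analysis was possible because the columns are group values and carry no replicate numbers; leaving out single replicates was not run for the same reason.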
